A study of Homo sapiens with 16 samples.

Results

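Caveolins (CAV1 and CAV2), cavins (CAVIN1 and CAVIN3) and flotillins (FLOT1 and FLOT2) are 6 of the 8657 genes in the table for cells with a control lentivirus, and of the 7433 genes in the table for cells complemented with DDX3X or DDX3Y. They were taken by symbol, and all 6 were found in both tables and had RNA and ribosome footprint base means above 20 in each. Most were listed for their family. CAV2 was picked on a measured value, its lower RNA in DDX3Y than in DDX3X cells in the comparison column of the authors' table, and that column was not used here. The cells are HCT-116, a human colorectal carcinoma line, in which OsTIR1 is driven by a CMV promoter and the endogenous DDX3X, an RNA helicase that acts in translation, carries the mini-AID tag, so that auxin (indole-3-acetic acid, IAA) brings about its degradation. The degron line was grown from a single clone, and the complemented lines were sorted for a fluorescent marker. The first table covers this line with control lentivirus (lentiCTRL), treated with DMSO or with 500 µM IAA for 48 h, and the second covers the line with lentiviral, FLAG-tagged and partially codon-optimized DDX3X (lentiDDX3X) or DDX3Y (lentiDDX3Y), both with 500 µM IAA for 48 h. Each of these 4 conditions had 2 ribosome profiling and 2 RNA-seq libraries, 16 in all, and the tables have no library in common. The study calls its replicates biological.

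For each gene a table gives a single RNA base mean and a single ribo base mean, the mean of normalized counts over all libraries of that kind, so that each value pools 4 libraries from both of its conditions. A level in DMSO, IAA, DDX3X or DDX3Y cells alone, a replicate SD and a test between conditions therefore could not be obtained. In their place, the agreement between the tables was measured over their 7386 shared genes. The robust SD of the difference in log2 footprints per RNA, with each table centred on its median gene, fell from 0.38 among genes with the fewest footprints to 0.18 among those with the most, and it contains differences of condition as well as measurement error. Over the shared genes, log2 footprints per RNA of the tables had a Pearson r of 0.955 and a Spearman rho of 0.952, across genes, which are not independent replicates. Of 8 colorectal epithelium markers 6 were listed in both tables, and KRT20 and VIL1 in neither. The keratins KRT8, KRT18 and KRT19 and the adhesion molecule EPCAM lay between the 87.2 and 99.4 percentiles of RNA base means, whereas the cadherin CDH1 was at the 53.3 and 49.9 percentiles and the intestinal transcription factor CDX2 at the 15.1 and 4.52 percentiles. Per kb of coding sequence, the keratins and EPCAM lay between the 92.2 and 98.8 percentiles. CDH1 was then at the 27.1 and 21.7 percentiles and CDX2 at the 28.8 and 14.5 percentiles. No gene with a ribo base mean under 10.0 is in the first table and none under 20 in the second, so a gene that is not listed need not be silent. Of 8 markers of endothelium, adipocytes, muscle and fibroblasts, COL1A1 was the single one listed, in the control lentivirus table, with an RNA base mean of 506 and a ribo base mean of 10.6.

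Caveolae are small flask-shaped invaginations of the plasma membrane. Caveolins are hairpin membrane proteins that assemble into oligomers and bind cholesterol, and cavins form a peripheral coat around them. CAV1 and CAVIN1 are needed for caveolae in most cells, CAV2 assembles with CAV1, and CAVIN3 is an adaptor that binds protein kinase C delta. Flotillins are scaffolds on the inner face of membranes that build microdomains distinct from caveolae, and FLOT1 and FLOT2 assemble with each other. Ribosome profiling counts the mRNA fragments that ribosomes protect, so that footprints divided by the RNA of the same gene describe how densely its messages are occupied.

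The bases around the start codon, where scanning ribosomes begin translation, are shown for all 6 genes because the comparisons below turn on footprints per RNA. They are from the canonical transcripts of GENCODE v44 (GRCh38), 10 bases before and 10 bases from the start codon on. Capitals mark the start codon, the third base before it and the base right after it.
CAV1: acgggccAgcATGTctgggg
CAV2: caaggctGcgATGGggctgg
CAVIN1: ccgggtaGccATGGaggacc
CAVIN3: gtcagggAtcATGAgggaga
FLOT1: agcctgaAccATGTttttca
FLOT2: cgccggcGccATGGgcaatt
All 6 have a purine at the third base before the start codon, as do 88.4% of the 8482 genes of the control lentivirus table with a value. CAV2, CAVIN1 and FLOT2 also have G right after the start codon, a combination found in 48.8% of those genes, while CAV1 and FLOT1 have T there and CAVIN3 has A. None of the 6 canonical 5′ UTRs contains an upstream ATG, and 65.3% of genes have none. Those of CAV1, CAV2 and CAVIN3 are only 27, 44 and 25 nt long, against a median of 123 nt, which leaves little room for one. Other transcripts were not searched. FLOT2, the lowest of the 6 in footprints per RNA below, has the same pair of purine and G as CAV2 and CAVIN1. The part of the start context in footprints per RNA was not tested.

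The caveolin genes lie side by side. CAV2 (ENSG00000105971.15) is on the plus strand of chromosome 7 and its canonical transcript runs from 116499738 to 116508541 (GRCh38). CAV1 (ENSG00000105974.12) follows on the same strand from 116525036 to 116561179, so that 16494 bases separate both transcripts. Each has 3 exons, all of them coding. CAVIN1 (ENSG00000177469.13, chromosome 17, 42402449 to 42423256) and CAVIN3 (ENSG00000170955.10, chromosome 11, 6318946 to 6320501) have 2 coding exons each on the minus strand. FLOT1 (ENSG00000137312.15, chromosome 6, 30727709 to 30742687) has 13 exons, 12 of them coding, and FLOT2 (ENSG00000132589.16, chromosome 17, 28879339 to 28897733) has 11, both on the minus strand. The proteins of a pair differ widely in how alike they are. In MAFFT alignments of the translated canonical coding sequences, FLOT1 (427 residues) and FLOT2 (428) were identical in 201 of 434 columns (46.3%). CAV1 (178) and CAV2 (162) were identical in 58 of 191 (30.4%), and CAVIN1 (390) and CAVIN3 (261) in 87 of 394 (22.1%). The longest unbroken identical stretch was 8 residues in both the caveolin and the flotillin pair. No window of 28 nt, about the length of a footprint, is shared by the coding sequences of CAV1, CAV2, CAVIN1, FLOT1 or FLOT2 with a transcript of another gene. For CAVIN3, 374 of 756 such windows (49.5%) match a long noncoding RNA (ENSG00000282556) on the opposite strand, which overlaps 399 of its 783 coding bases. The RNA-seq libraries are described as stranded, but the strand setting used for counting is not given in the sources used here, so reads of CAVIN3 and of that RNA may not have been told apart and the RNA base mean of CAVIN3 is uncertain.

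CAV1 had the most RNA and the most footprints of the 6 genes. In the authors' tables its RNA base mean was 4515 in control lentivirus cells and 3190 in complemented cells, at the 94.1 and 87.7 percentiles of each table, and its ribo base mean was 453 and 278, at the 98.5 and 94.4 percentiles. CAV2 came next, with RNA base means of 3488 and 2532 and ribo base means of 277 and 242. The caveolins thus stood among the more abundant messages of these epithelial cells in both tables. CAVIN1 had RNA base means of 1865 and 2060 and ribo base means of 152 and 204. CAVIN3 was at the opposite end, with RNA base means of 166 and 404, at the 2.28 and 9.69 percentiles, and ribo base means of 21.1 and 40.7. FLOT1 and FLOT2 had RNA base means of 1310 and 2156 in control lentivirus cells and of 1598 and 2304 in complemented cells. Their ribo base means were nearly equal in control lentivirus cells, at 50.05 and 50.2, and were 97.8 and 70.8 in complemented cells. The median gene had 868 and 34.1 in the first table and 1084 and 52.7 in the second, for RNA and ribo. Base means grow with the length of a coding sequence, so neither these values nor their percentiles compare genes with each other per molecule.

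**Figure D1:**
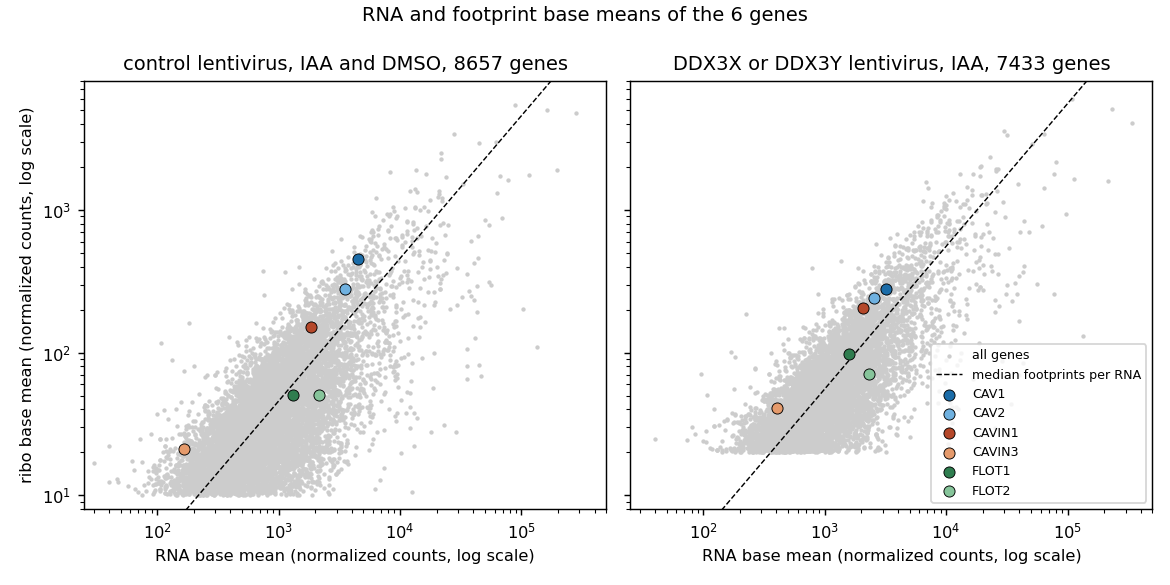
RNA base mean (x axis) against ribo base mean (y axis), both in normalized counts on log scales, for every gene (grey) and the 6 genes (coloured), in control lentivirus cells (left) and complemented cells (right). The dashed line is the median footprints per RNA; in both panels CAV1, CAV2, CAVIN1 and CAVIN3 lie above it and FLOT2 below it.

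Per coding length, the caveolins stood far above the other 4 genes. CAV1, with a coding sequence of 534 nt, had an RNA base mean of 8456 per kb of coding sequence in control lentivirus cells and 5974 in complemented cells, and CAV2, with 486 nt, had 7178 and 5211. On a log2 scale relative to the median gene of the table these were RNA levels of 3.82 and 3.04 for CAV1 and of 3.58 and 2.84 for CAV2. CAV1 was 1.18 times and 1.15 times as high as CAV2 in the tables. These log2 gaps of 0.24 and 0.20, centred on the shared genes, are within 0.37, the combined robust SD between tables of both genes. Their RNA levels therefore could not be ordered. FLOT2 followed with 1679 and 1794 per kb (log2 1.48 and 1.30 above the median gene) and CAVIN1 with 1594 and 1761 (log2 1.41 and 1.28), and these also could not be ordered. FLOT1 had 1023 and 1247 per kb, or log2 0.77 and 0.78, and lay below CAVIN1 by more than the robust SD in both tables. With the coding length averaged over transcripts this order turned in control lentivirus cells, to 1.15 for FLOT1 and 0.95 for CAVIN1. The robust SD between tables leaves out errors that both tables share, such as the choice of coding length. CAVIN3 was the single member below the median gene in RNA, with 212 and 516 per kb and log2 values of -1.50 and -0.49. CAVIN1 therefore exceeded CAVIN3 in RNA per kb by 7.51 times in control lentivirus cells and by 3.41 times in complemented cells.

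In footprints per kb the caveolins again stood highest. CAV1 had a ribo base mean of 849 per kb in control lentivirus cells and 521 in complemented cells, at the 99.1 and 97.0 percentiles, and CAV2 had 571 and 499. The gap between them was 1.49 times in the first table and 1.05 times in the second, and only the first exceeded the robust SD. CAVIN1, at 130 and 175 per kb, lay below CAV2 and above both flotillins by more than that SD in both tables. FLOT1 had 39.07 and 76.4 footprints per kb and FLOT2 had 39.1 and 55.2, so that they matched in control lentivirus cells although FLOT2 had more RNA there. This depends on the coding length used: averaged over transcripts, log2 footprint levels in those cells were 1.04 for FLOT1 and 0.31 for FLOT2, with RNA levels of 1.15 and 1.14. CAVIN3 had 27.0 and 51.9 footprints per kb, near the median gene in both tables (53.4 and 60.6 percentiles), with log2 values of 0.15 and 0.43 of which the first turned to between -0.42 and -0.13 under 3 other settings, while its RNA per kb was at the 9.92 and 32.9 percentiles.

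**Figure D2:**
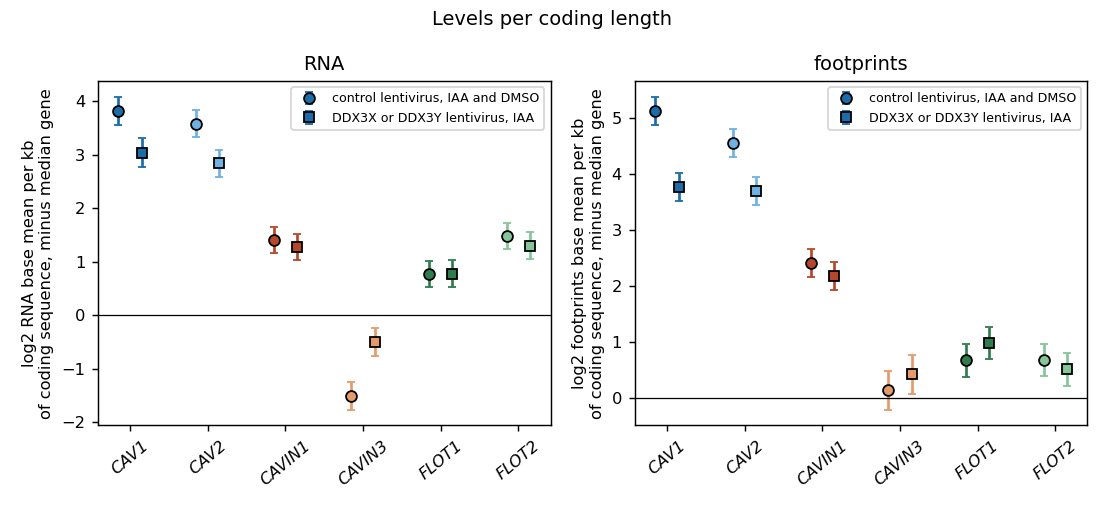
Log2 base mean per kb of coding sequence minus that of the median gene (y axis) for RNA (left) and footprints (right) of each gene (x axis), in control lentivirus cells (circles) and complemented cells (squares). Bars are the robust SD of the difference between tables over genes of like base mean; the caveolins lie highest, between 2.84 and 3.82 for RNA.

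Messages of CAV1, CAV2 and CAVIN1 carried more footprints per RNA than the median gene, and those of FLOT2 fewer. On a log2 scale relative to the median gene, CAV1 had 1.13 in control lentivirus cells and 0.65 in complemented cells, or 2.20 and 1.57 times the footprints per RNA of the median gene. CAV2 had 0.80 and 0.78 (1.74 and 1.72 times), and CAVIN1 had 0.83 and 0.84 (1.78 and 1.78 times), so that these values repeated closely in libraries that the tables do not share. CAVIN3 had the highest value, 1.48 and 0.86, at the 96.4 and 88.6 percentiles. In control lentivirus cells no gene with a ribo base mean under 10.0 is listed. With the median 45.7 footprints per 1000 RNA, CAVIN3 (RNA base mean 166) would fall under that minimum. That it lies above the median gene there thus follows from its being listed. In complemented cells the minimum of 20 leaves it little room below the median, at an RNA base mean of 404. FLOT1 was near the median gene, at -0.26 and 0.14, and its sign was not the same in the tables. FLOT2 had -0.97 and -0.85, or 0.509 and 0.553 times the median gene, at the 19.8 and 18.4 percentiles. Over the 6 genes the median was 0.81 in the first table and 0.72 in the second, against 0 for all genes by construction, with 4 and 5 members above it. Those medians and counts include CAVIN3. In the order CAVIN3, CAV1, CAVIN1 and CAV2, neighbours did not differ beyond the robust SD in both tables, whereas the step from CAV2 down to FLOT1 (1.06 and 0.64) and that from FLOT1 down to FLOT2 (0.71 and 0.99, or 1.64 and 1.99 times) exceeded it in both tables. Against the median of genes with both base means above 100, the values in control lentivirus cells were lower, at 0.59 for CAV1, 0.26 for CAV2, 0.29 for CAVIN1, 0.93 for CAVIN3, -0.80 for FLOT1 and -1.51 for FLOT2.

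Footprints per RNA varied with coding length over the whole table, and the caveolins are short. Genes were split into 5 classes of equal size by coding length. In the class with the shortest coding sequences, up to 741 nt, the median log2 footprints per RNA in control lentivirus cells was 0.79 (quartiles 0.21 and 1.25), and in the class with the longest it was -0.82. CAV2 was at the median of its own length class in control lentivirus cells, and CAV1 was within its quartiles in both tables. CAVIN1 and CAVIN3, of 1170 and 783 nt, belong to the next class, with a median of 0.28 and an upper quartile of 0.75 in control lentivirus cells and of 0.29 and 0.61 in complemented cells. Both exceeded the upper quartile of that class in each table. The flotillins, of 1281 and 1284 nt, belong to the middle class, with a median of 0.07 in both tables, and FLOT2 was below the lower quartile of that class (-0.58 and -0.44) each time while FLOT1 was inside the quartiles. Footprints per RNA also varied with the RNA base mean, in tables that hold no gene under the minimum of footprints given above. Of 10 classes by RNA base mean, CAVIN3 is in the lowest in both tables, where the median was 0.74 (upper quartile 1.19) in control lentivirus cells and 0.67 (upper quartile 1.02) in complemented cells. CAVIN3 was thus above that upper quartile in the first table and below it in the second. In the classes that hold CAV1, CAV2 and CAVIN1 the medians ran from -0.70 to -0.32, and these 3 genes exceeded the upper quartile of their RNA class in both tables. FLOT1 and FLOT2 lay inside the quartiles of their RNA classes in both tables, unlike FLOT2 in its length class. The part of coding length and of RNA level in these values was not tested.

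**Figure D3:**
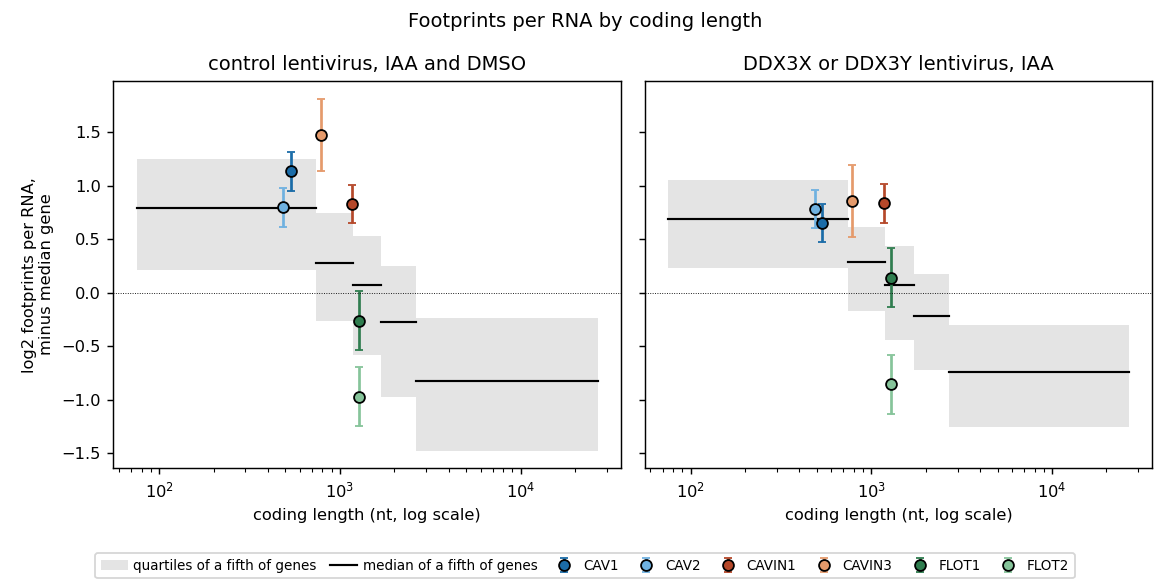
Log2 footprints per RNA minus the median gene (y axis) against coding length in nt (x axis, log scale), in control lentivirus cells (left) and complemented cells (right). Black lines and grey bands are the medians and quartiles of 5 classes of all genes by length, and bars are the robust SD between tables; CAVIN1 lies above and FLOT2 below the band of its length class in both panels.

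The canonical 5′ UTRs of the members range in GC content from 59.3% to 81.8%. GC content of 5′ UTRs bears on DDX3X because the helicase is known for unwinding structured leaders. CAV2 and FLOT2 have the richest, 81.8% over 44 nt and 80.5% over 159 nt, at the 93.4 and 91.1 percentiles of genes in the control lentivirus table. FLOT1 has 76.6% over 175 nt, CAVIN1 71.1% over 159 nt, CAVIN3 64.0% over 25 nt and CAV1 59.3% over 27 nt, against a median of 68.5% and 123 nt for all genes. Neighbouring CAV1 and CAV2 are therefore alike in short canonical leaders and far apart in their GC content. Leader lengths depend on the transcript: averaged over annotated coding transcripts they were 155 nt for CAV1, 29.3 for CAV2, 40.5 for CAVIN3, 91.6 for FLOT1 and 99.0 for FLOT2. The leader GC content of FLOT1 was 65.6% by the same average, below rather than above the median of all genes. In the highest of 5 classes by 5′ UTR GC content, the median log2 footprints per RNA minus the median gene was -0.43 in control lentivirus cells (quartiles -1.30 and 0.25) and -0.22 in complemented cells (-0.92 and 0.28). CAV2, at 0.80 and 0.78, exceeded the upper quartile of that class in both tables, while FLOT2 lay inside the quartiles, at -0.97 and -0.85. These 2 genes also differ in coding length, 486 and 1284 nt, and in the length of their leaders. The part of leader GC content in their footprints per RNA was not tested. In the coding sequence, CAVIN3 and CAVIN1 are rich in GC, at 70.8% and 65.3% (98.8 and 93.1 percentiles), while CAV1 has 50.4%, CAV2 53.9%, FLOT1 57.2% and FLOT2 57.9%. Over all genes, 5′ UTR GC content and log2 footprints per RNA had a Spearman rho of -0.19 in control lentivirus cells (8410 genes) and -0.11 in complemented cells (7232 genes), as a description across genes that share libraries.

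**Figure D4:**
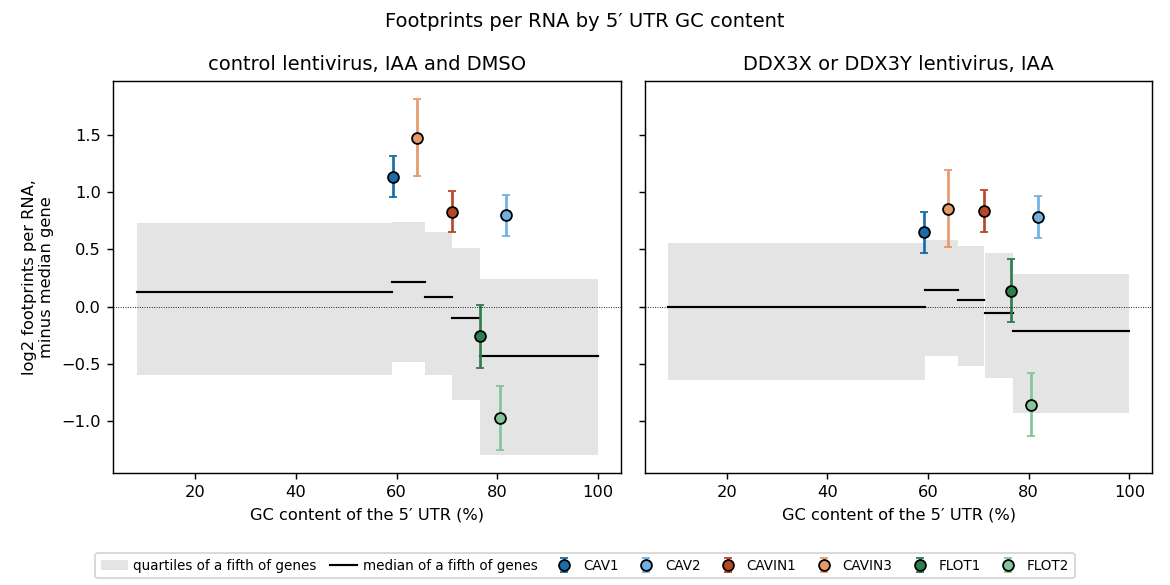
Log2 footprints per RNA minus the median gene (y axis) against the GC content of the 5′ UTR in % (x axis), in control lentivirus cells (left) and complemented cells (right). Black lines and grey bands are the medians and quartiles of 5 classes of all genes by GC content, and bars are the robust SD between tables; CAV2, at 81.8% GC, lies above the band of its class in both panels.

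Between the tables, RNA of CAV1 and CAV2 stood lower in complemented than in control lentivirus cells relative to the shared genes, and RNA of CAVIN3 higher. Tables were normalized separately, so each was centred on the median of the shared genes. The RNA level of CAV1 per kb was then log2 3.63 in control lentivirus cells and 3.03 in complemented cells, a difference of -0.59 (1.41 percentile of all shared genes), and that of CAV2 was 3.39 and 2.84, a difference of -0.55 (2.01 percentile). The value of CAV2 in complemented cells pools the DDX3Y and DDX3X libraries on which CAV2 was picked, so its difference is a description and not independent of that choice. CAVIN3 had -1.69 and -0.50, a difference of 1.19 (99.8 percentile), or 4.60 times the robust SD of genes with like RNA base means. This difference is uncertain, as reads of CAVIN3 and of the overlapping RNA on the opposite strand may not have been told apart. The other members differed by 0.19 or less: FLOT1 by 0.19, CAVIN1 by 0.05 and FLOT2 by 0.004. For footprints per kb the differences were -1.10 for CAV1 (0.0822 percentile), -0.59 for CAV2, 0.55 for CAVIN3 and 0.57 for FLOT1, with 0.04 for CAVIN1 and 0.10 for FLOT2. Accordingly, footprints per RNA differed by -0.44 for CAV1, -0.58 for CAVIN3 and 0.44 for FLOT1, and by 0.16 or less for CAV2, CAVIN1 and FLOT2. In robust SDs of genes with like ribo base means, these were -2.45 for CAV1, -1.70 for CAVIN3 and 1.60 for FLOT1. The difference of CAVIN3 starts from a control lentivirus value that lies above the median gene because CAVIN3 is listed. No test was possible for these differences. In such bulk libraries fewer cells with a message and less of it per cell cannot be told apart. The lentivirus, the mix of DMSO and IAA libraries and the separate normalization differ between the tables at the same time and cannot be told apart.

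Other genes of the same structures set the members in context. The other caveolin CAV3 and the other cavins CAVIN2 and CAVIN4 were not listed in either table. Of 11 genes that act at caveolae, 9 were listed in both tables, with a median log2 footprints per RNA minus the median gene of 0.02 in control lentivirus cells and 0.21 in complemented cells. The lowest were ABL1, a kinase of CAV1, at -2.19 and -1.86, and SRC, another, at -0.66 and -0.37 (FLNA, which links CAV1 to actin, was next lowest after ABL1 in complemented cells at -0.49). The highest were PACSIN2, a membrane-bending F-BAR protein, at 0.82 and 0.56, and EHD2, the ATPase of the caveolar neck, at 0.78 and 0.71. Of 8 other genes of the SPFH family, to which flotillins belong, 6 were listed, with medians of 0.36 and 0.06. The lowest in control lentivirus cells were the prohibitin PHB at -0.34 and STOML2, a mitochondrial stomatin-like gene, at -0.27, with -0.64 and 0.02 in complemented cells. ERLIN2, of the endoplasmic reticulum, and STOM, stomatin, were highest at 1.28 and 1.15, and had 0.97 and 1.10 in complemented cells. Their RNA base means were low, at 239 and 272 in control lentivirus cells and 293 and 240 in complemented cells. With the median 55.6 footprints per 1000 RNA, both would fall under the minimum of 20 in complemented cells. That they lie above the median gene there thus follows from their being listed. In control lentivirus cells the minimum of 10.0 leaves them little room below the median. The SPFH medians include both genes. FLOT2 lay below all 6 of these SPFH genes in both tables, and FLOT1 lay within their range. In complemented cells the gap between FLOT2 (-0.85) and PHB (-0.64) was smaller than 0.28, the robust SD of FLOT2 alone. FLOT2 and PHB therefore could not be ordered there. All 6 also have shorter coding sequences than FLOT2, and the part of coding length in this order was not tested.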

How the data were processed

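RNA-seq and ribosome profiling libraries were grouped by the sample titles. The authors removed adapters, merged footprint reads with the same UMI, filtered out ribosomal and small noncoding RNA, aligned to hg38, counted reads above 24 nt over coding sequences with Ribo-seQC and compared conditions with DESeq2. Tools in the submitters' processing notes are STAR 2.6.0a, Bowtie2 and cutadapt. An annotation release is not given in the sources used here. Deposited tables hold base means (means of normalized counts over the libraries of a comparison), which were used, and the authors' own log2 fold changes, adjusted p-values and classes, which were not. The tables hold no value or depth per library, and the read counts that the study lists elsewhere were not used here. No interval, test or fit of RNA or footprint values was therefore computed. Wilson intervals of GC content and protein identity treat bases or alignment columns as independent, and served only as a tolerance for the alternatives.

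Footprints per RNA are log2 of ribo over RNA base mean. RNA and ribo were scaled separately, so values have meaning only against the median gene. Levels per kb use coding lengths of Ensembl canonical transcripts in GENCODE v44, without the stop codon, found for 98.7% and 98.9% of genes; 5′ UTR GC content needed at least 10 nt. Robust SDs are median absolute deviations times 1.4826 in 10 bins of base mean, a calculation tested on simulated data. Wherever a gap between a pair of genes was set against the robust SD, that SD was the square root of the summed squares of both genes' values. Bars in the figures show the value of each gene alone. Proteins were aligned with MAFFT 7.526 and Biopython 1.88; other steps used Python 3.11.15 and pandas 2.3.3. Members and gene lists were chosen with earlier results of these data known. Named are all members, the other caveolins and cavins, and the 2 highest and 2 lowest of each other list, with markers by name where listed or missing.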

Additional observations from a re-analysis of the deposited data

How the results depend on the processing

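Of 117 alternatives, 72 left a value within the robust SD between tables (lengths within 1.5 times, GC content and protein identity within the 95% Wilson interval) and 45 moved it. The longest coding sequence, a pseudocount of 1 and the other aligner moved none. In the DDX3X and DDX3Y table, footprints per RNA were 0.65 for CAV1, 0.86 for CAVIN3 and 0.14 for FLOT1, whose sign changed. RNA levels per kb there were 3.04 for CAV1, 2.84 for CAV2 and -0.49 for CAVIN3, and footprint levels were 3.76 for CAV1, 3.69 for CAV2 and 0.99 for FLOT1. The other alternatives are for control lentivirus cells. Against the median of genes with both base means above 100, footprints per RNA were 0.59 for CAV1, 0.26 for CAV2, 0.29 for CAVIN1, 0.93 for CAVIN3, -0.80 for FLOT1 and -1.51 for FLOT2. Against genes with both above 20, RNA levels per kb were 3.48, 3.24, 1.07, -1.84, 0.43 and 1.14 in the same order, and footprint levels were 4.57, 3.99, 1.85, -0.41 (a changed sign), 0.12 and 0.13. Both follow from the construction, as a different set of genes gives another median. Against the shared genes, an alternative chosen after seeing the data, footprint levels were 4.85 for CAV1, 4.28 for CAV2 and 2.14 for CAVIN1, and that of CAVIN3 changed sign to -0.13. With coding length averaged over transcripts, RNA levels per kb were 0.95 for CAVIN1, -2.04 for CAVIN3, 1.15 for FLOT1 and 1.14 for FLOT2, and footprint levels were 1.93, -0.42 (a changed sign), 1.04 and 0.31. CAVIN1 has 1 coding transcript and kept its coding length of 1170 nt, so its values moved only because the median gene did. Averaged over coding transcripts, 5′ UTRs were 155 nt for CAV1, 29.3 for CAV2, 40.5 for CAVIN3, 91.6 for FLOT1 and 99.0 for FLOT2, FLOT1 had 65.6% GC in its 5′ UTR and a coding length of 718 nt. No paired analysis was possible because the tables carry no values per replicate.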
